A study of Mus musculus with 16 samples.

Results

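The 38 genes described here are Nrf2, its inhibitor Keap1, and enzymes that make, recycle or use glutathione, thioredoxin and NADPH. They were chosen by symbol, from 55487 genes listed in each library and 15573 tested, and all 38 passed the filter on low counts. The libraries come from 16 organoid lines and 6 mice of the KPC model of pancreatic ductal adenocarcinoma, a genetically engineered model in which tumors are started in the pancreas by Cre. Organoids are epithelial cultures grown in a gel, here Matrigel. Stage was compared within mice, between 7 lines from primary tumors and 9 lines from metastases.

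The strain label is C57BL6/J for every line, and the labels name no treatment that differs between lines. Mouse 1 gave tumor replicate 1 and metastasis replicate 1 (liver). Mice 2, 3 and 4 each gave a tumor line (replicates 2, 3 and 4) and a peritoneal metastasis line (replicates 9, 2 and 3). Mouse 5 gave tumor replicate 5 and metastasis replicates 4 (diaphragm) and 5 (lung). Mouse 6 gave tumor replicates 6 and 7 and metastasis replicates 6 (liver), 7 (diaphragm) and 8 (ovary). The alleles, the driver of Cre, the age of the mice and whether a line is 1 clone are not given in the sources used here. All lines grew in the same medium, which held 1.25 mM N-acetylcysteine, a cysteine donor from which cells make glutathione, so every value is a level under that supply. Since several lines can come from 1 animal, p-values reflect in part how cultures vary and not only how the 6 mice vary.

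Nrf2, encoded by Nfe2l2, is a transcription factor that Keap1 holds in the cytoplasm and passes to the proteasome. Oxidants and reactive chemicals modify Keap1, and Nrf2 then enters the nucleus and binds antioxidant response elements with small Maf proteins. Its known targets make glutathione, attach it to toxic molecules, keep thioredoxin reduced and supply NADPH for both systems. Nrf2 activity is set mainly at the protein level, which RNA does not show.

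Total expected counts ran from 24624390 to 49965469 per library. Reads of 3 genes linked to ribosomal RNA took 72.7% of metastasis replicate 4 and 29.9% of tumor replicate 2. The other tumor lines held 0.0463% to 0.588%, and the other metastasis lines 0.0185% to 18.5%, so this share differed in part with stage. Tumor replicate 6 stood apart from the other tumor lines. A list of 15 p53 targets summed to 676 CPM there, against 1412 to 2125 CPM in the other tumor lines and 406 to 715 CPM in the metastasis group. CPM is the count of a gene relative to the library's total, scaled by TMM, and it compares lines. Of the 15 p53 targets, 12 fell with stage and 0 rose. Epithelial markers summed to between 3745 and 7407 CPM in every line. Summed markers of fibroblasts (at most 0.782 CPM, Lum at 0), endothelium (at most 1.81), immune cells (at most 5.28, Adgre1 at 0) and acinar cells (at most 1.78, Cpa1 and Prss1 at 0) were low. Hepatocyte markers summed to 7.14 to 113 CPM in the tumor group and 0.453 to 7.06 CPM in the other, with Ttr as the 1 of 2 tested markers that fell. Lung markers summed to 9.94 to 222 and 0.0655 to 21.5 CPM, with Nkx2-1 at 0. Nearly all of that sum was Sftpd, the 1 lung marker tested, which fell by 5.87 on the log2 scale (adjusted p = 0.00331). Mesothelial markers summed to 164 to 1135 and 309 to 757 CPM, mostly Msln, with 0 of 4 tested past the threshold and Calb2 at 0. The part of the lists that moved with stage in the results for the 38 genes was not tested. In bulk RNA, fewer cells of a type and less RNA per cell cannot be told apart.

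Nfe2l2 itself, 9 of 15 glutathione transferases, 2 of 5 genes of glutathione synthesis and recycling and 2 of 4 thioredoxin genes were lower in metastasis lines. Of the 38 genes, 16 fell in metastasis lines against tumor lines of the same mice, 1 rose (Gpx1) and 21 did not pass the test (edgeR quasi-likelihood, adjusted p under 0.05). Over all genes tested, 9.92% fell, 6.59% rose and 16.5% moved in either direction. The median log2 fold change was -0.41 over the 38 genes and -0.02 over all genes. Log2 CPM was lower in 6 of 6 mice for 14 of the 38 (13.9% of all genes) and higher in 6 of 6 for 3, which were Gsr, Gpx1 and Mgst2 (11.9% of all genes). Every tumor line lay above every metastasis line for 3 of them, Gstm2, Gstp1 and Gstt2 (0.758% of all genes), and 0 showed the opposite (0.36% of all genes).

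These counts moved with single libraries. With tumor replicate 6 left out, 17 of the 38 fell (13.5% of all genes). The 3 that rose (1778 of 15802 genes) were Gsr, Gpx1 and Mgst2. With tumor replicate 5 left out, 8 fell (4.57% of all genes) and 0 rose (413 of 15749 genes). Leaving out both tumor replicate 2 and metastasis replicate 4 also removes the comparison of mouse 2. Then 5 fell (3.52% of all genes) and 0 rose (238 of 15817 genes). Those 5 were Nfe2l2, Gsta3, Gstm2, Gstt2 and Mgst1, and they fell in the main fit and in all 37 alternatives. With each library's ribosomal RNA percent added to the fit, 11 of the 38 fell (1089 of 15573 genes) and 1 rose (790 of 15573).

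**Figure D1:**
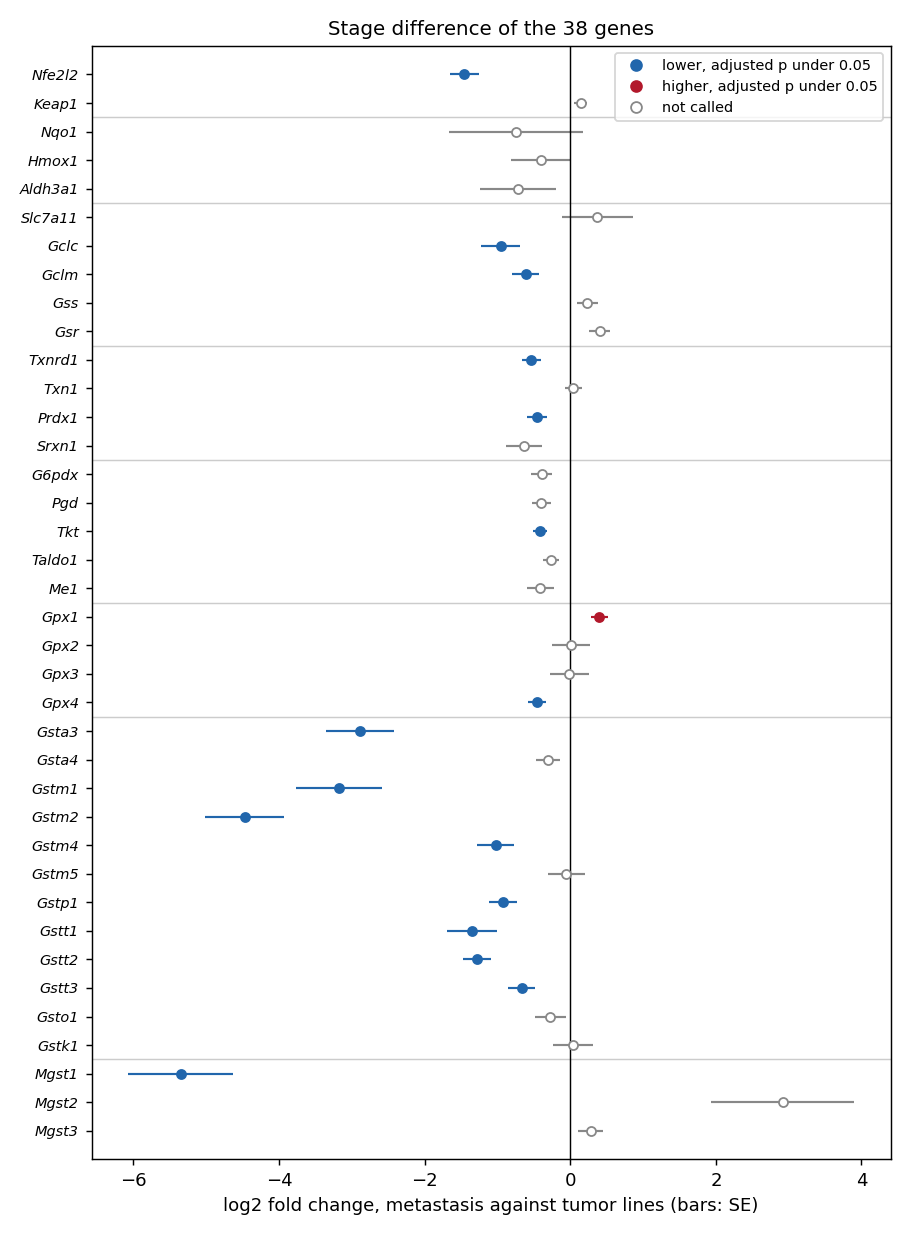
The x axis shows the log2 fold change of metastasis against tumor lines and the y axis the 38 genes by role, with bars for the SE. Most points lie left of 0, with Mgst1 at -5.35 farthest to the left and Mgst2 at 2.92 farthest to the right.

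Of the regulators, Nfe2l2 fell and Keap1 did not pass the test. Nfe2l2 (ENSMUSG00000015839.6, chr2:75675513-75704641, minus strand, GRCm38) ran from 125 to 449 CPM in tumor lines with a median of 379. In metastasis lines it ran from 97.3 to 189 CPM with a median of 116. The ranges overlapped through tumor replicate 6 alone, at 125 CPM, while the other tumor lines held 330 CPM or more. The tumor mean was 347 ± 104 CPM (SD, n = 7), and the metastasis mean was 124 ± 27.3 CPM (SD, n = 9). The fitted level was 2.74-fold lower, or -1.45 in log2 terms (SE 0.20, adjusted p = 0.0023), and lower in 6 of 6 mice. Keap1, the adaptor that marks Nrf2 for breakdown, differed by 0.15 (SE 0.09, adjusted p = 0.271), with overlapping ranges of 46.3 to 69.9 and 53.6 to 75.8 CPM. Of 14 tested genes for other factors and regulators around Nrf2, among them Bach1, the small Maf genes and Cul3, 0 fell and 0 rose.

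None of the quinone, heme and aldehyde enzymes passed the test. Nqo1, the quinone reductase often used as a readout of Nrf2, ran from 1.00 to 5.90 CPM in the 7 tumor lines and from 0.0218 to 40.6 CPM in the 9 metastasis lines. Its medians were 2.46 and 2.12 CPM, and its difference of -0.74 had an SE of 0.93 (adjusted p = 0.611). Per length, Nqo1 was the second lowest of the 38 genes, with a median of 2.17 TPM over the 16 lines. Hmox1, heme oxygenase, had medians of 13.8 and 15.5 CPM (log2 fold change -0.40, adjusted p = 0.52), with 93.3 CPM in tumor replicate 6. Without that library the Hmox1 difference was 0.19, still short of the threshold. Aldh3a1, an aldehyde dehydrogenase, had medians of 6.66 and 2.07 CPM (log2 fold change -0.72, adjusted p = 0.357) and was lower in 5 of 6 mice. In mouse 4 it was far higher in the metastasis line, metastasis replicate 3, at 83.7 CPM.

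Both subunits of the enzyme that starts glutathione synthesis fell, and the other genes for cysteine supply, glutathione synthesis and recycling did not pass the test. Gclc, the catalytic subunit of glutamate-cysteine ligase, ran from 87.0 to 467 CPM in tumor lines (median 153) and from 58.8 to 194 CPM in metastasis lines (median 82.3). The ranges overlapped, and the log2 fold change was -0.96 (SE 0.27, adjusted p = 0.0329). It passed in 4 of 16 fits that each left out 1 library (tumor replicates 4 and 6, metastasis replicates 3 and 5), with an adjusted p of at most 0.0808 in the others. Gclm, the modifier subunit, had medians of 121 and 53.4 CPM and a log2 difference of -0.61 (SE 0.18, adjusted p = 0.042). Its 213 CPM in metastasis replicate 3 was the highest value of all 16 lines, above the 183 CPM of the highest tumor line. Without metastasis replicate 3 the Gclm difference was -0.78 (adjusted p = 0.00444). It also passed without tumor replicates 4 or 6, and did not pass in the other 13 such fits (adjusted p up to 0.136). Without the mouse block the Gclm difference was -0.56 and did not pass (adjusted p = 0.226). On counts summed per mouse and stage, neither Gclm (-0.55, adjusted p = 0.158) nor Gclc (-0.88, adjusted p = 0.0789) passed.

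Slc7a11, the cystine importer, had medians of 105 and 144 CPM (log2 fold change 0.37, adjusted p = 0.632). Gss, glutathione synthetase, had medians of 91.2 and 97.4 CPM (0.24, adjusted p = 0.279). Gsr, which returns oxidized glutathione to its reduced form, ran from 236 to 310 CPM in tumor lines and from 289 to 699 CPM in metastasis lines. It was higher in 6 of 6 mice, with a log2 difference of 0.41 that missed the threshold (SE 0.15, adjusted p = 0.0729). It passed without tumor replicate 6 (adjusted p = 0.0394). Of these 5 genes, the called ones were thus the 2 subunits of the first enzyme.

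In the thioredoxin system, Txnrd1 and Prdx1 fell, while Txn1 and Srxn1 did not pass the test. Txnrd1, thioredoxin reductase, ran from 196 to 333 CPM in tumor lines (median 255) and from 139 to 215 CPM in metastasis lines (median 190). Its log2 fold change was -0.53 (SE 0.13, adjusted p = 0.0173) and it was lower in 6 of 6 mice, although the ranges overlapped. Without tumor replicate 5 its adjusted p was 0.0544. Prdx1, a peroxidase that thioredoxin keeps reduced, had medians of 1018 and 794 CPM (-0.46, SE 0.14, adjusted p = 0.0396). Prdx1 passed in 4 of 16 fits without 1 library (tumor replicates 6 and 7, metastasis replicates 6 and 8), and its adjusted p reached 0.114 in the others. On counts summed per mouse and stage it was 0.0715. Per length, in TPM, Prdx1 was the most abundant of the 38 transcripts, with a median of 1044 over the 16 lines. Txn1, thioredoxin itself, had medians of 259 and 251 CPM (0.04, adjusted p = 0.842). Srxn1, the reductase that repairs overoxidized peroxiredoxins, had medians of 49.9 and 28.8 CPM. Its difference of -0.63 missed the threshold (adjusted p = 0.0931) except without tumor replicate 3 or metastasis replicate 2 (adjusted p = 0.0437 in each).

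All 5 genes grouped under NADPH and the pentose phosphate pathway had negative differences, as did 8113 of 15573 genes tested. Of the 5, Tkt fell, while G6pdx, Pgd and Me1, whose enzymes make NADPH, did not pass the test. Tkt, transketolase of the pentose phosphate pathway, ran from 932 to 1108 CPM in tumor lines (median 1032) and from 539 to 983 CPM in metastasis lines (median 851). Only the upper metastasis values overlapped the tumor range, and the log2 fold change was -0.41 (SE 0.10, adjusted p = 0.017). Without tumor replicate 5 its adjusted p was 0.0552. Pgd, 6-phosphogluconate dehydrogenase, differed by -0.40 (adjusted p = 0.0596) and was lower in 6 of 6 mice. It passed without tumor replicate 6 (adjusted p = 0.0274). G6pdx, which commits glucose 6-phosphate to the pathway, differed by -0.39 (adjusted p = 0.0796). Taldo1, transaldolase, differed by -0.27 (adjusted p = 0.107), and Me1, malic enzyme of the cytosol, by -0.41 (adjusted p = 0.136). The summed level of these 5 genes was 1667 to 1906 CPM for tumor lines, against 1097 to 1726 CPM for metastasis lines. Metastasis replicate 3 alone reached the tumor range.

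The glutathione peroxidases went both ways. Gpx1, the abundant peroxidase of cytosol and mitochondria, ran from 151 to 215 CPM in tumor lines (median 195) and from 210 to 305 CPM in metastasis lines (median 238). It rose by 0.40 (SE 0.12, adjusted p = 0.0362), was higher in 6 of 6 mice, and its ranges met between 210 and 215 CPM. Gpx4, which reduces lipid peroxides in membranes and guards against ferroptosis, had medians of 159 and 123 CPM. Its log2 difference was -0.46 (SE 0.13, adjusted p = 0.0325) and it was lower in 6 of 6 mice. Both calls were fragile to single libraries. Gpx1 passed in 7 of 16 fits without 1 library (tumor replicates 4, 6 and 7, metastasis replicates 3, 4, 6 and 8), with an adjusted p up to 0.0978. Gpx4 passed in 5 (tumor replicates 6 and 7, metastasis replicates 6, 7 and 8), with an adjusted p up to 0.111. Gpx4 also did not pass without the mouse block (adjusted p = 0.0714) or on counts summed per mouse and stage (adjusted p = 0.0536).

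Gpx2, an epithelial peroxidase of gut and tumors, had medians of 168 and 227 CPM (0.01, adjusted p = 0.985) and its highest value, 602 CPM, in metastasis replicate 3. Gpx3, a secreted peroxidase, stayed at or below 1.10 CPM in all lines. As shares of the summed TPM of the 4 peroxidases, Gpx1 had medians of 34.9% in tumor lines and 44.5% in metastasis lines, and Gpx4 had 30.4% and 21.5%. These shares are descriptions without a test.

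**Figure D2:**
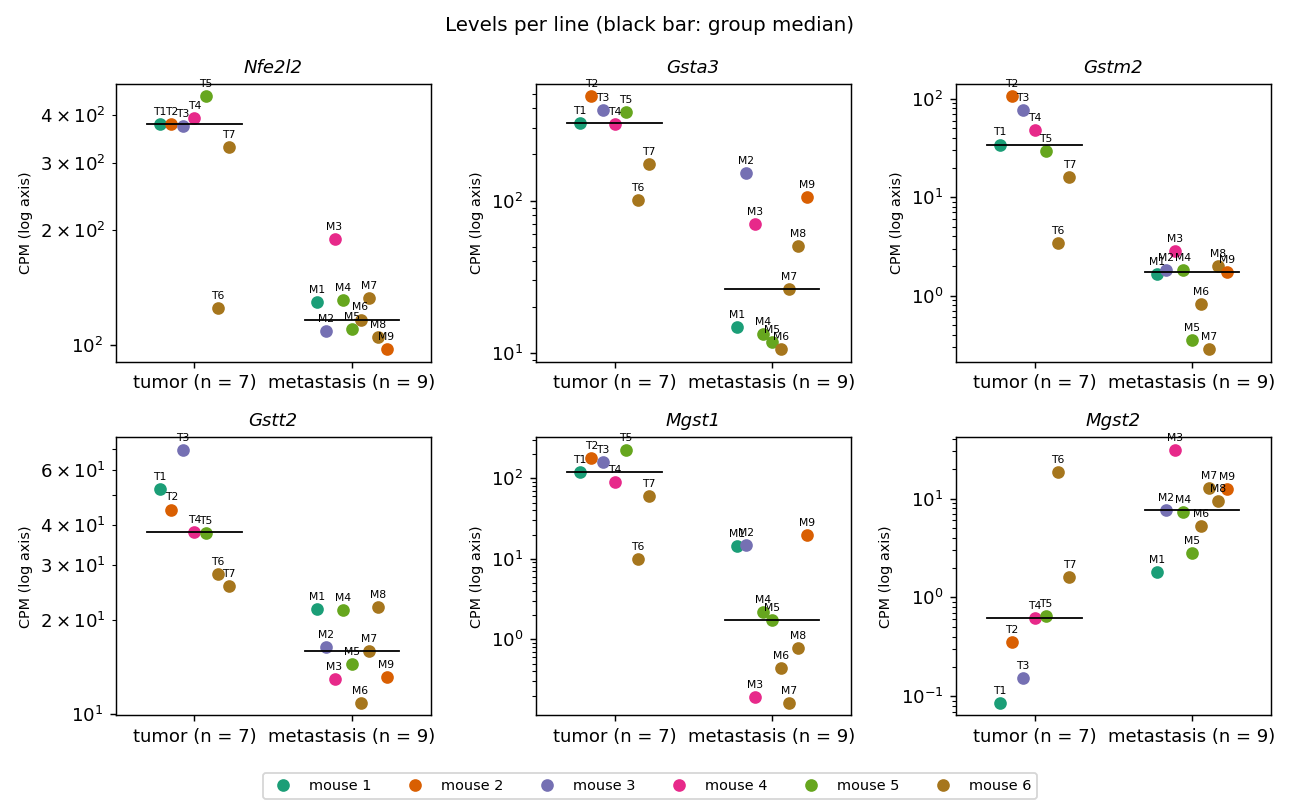
Each panel plots CPM per line on a log axis for tumor (n = 7) and metastasis (n = 9) lines, coloured by mouse, with a black bar at the group median. The Nfe2l2 point of tumor replicate 6, at 125 CPM, is the tumor line inside the metastasis range of 97.3 to 189 CPM.

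Glutathione transferases attach glutathione to reactive molecules, and they held the largest differences. Of the 15 transferases, 9 fell and 0 rose, with a median log2 fold change of -0.92. Of the 12 cytosolic and kappa enzymes, 8 fell. RSEM divides reads between similar genes, and the alpha, mu, theta and pi families hold close copies, so the split between neighbours in a family is uncertain.

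Gsta3 of the alpha class (ENSMUSG00000025934.15, chr1:21240589-21265661, plus strand) ran from 101 to 481 CPM in tumor lines with a median of 321. In metastasis lines it ran from 10.7 to 151 CPM with a median of 26.4. The ranges overlapped through tumor replicate 6, at 101 CPM, which lay below metastasis replicates 2 and 9, at 151 and 105 CPM. The fitted level was 7.39-fold lower, or -2.89 in log2 terms (SE 0.47, adjusted p = 0.00441), and lower in 6 of 6 mice. Gsta4, an alpha enzyme that clears lipid aldehydes, had medians of 517 and 448 CPM, and its difference of -0.31 did not pass (SE 0.17, adjusted p = 0.221).

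The mu class lies in a row on chromosome 3, and its members differed from one another. Gstm2 (ENSMUSG00000040562.12, chr3:107981702-107986453, minus strand) ran from 3.41 to 106 CPM in tumor lines (median 34.3) and from 0.285 to 2.83 CPM in metastasis lines (median 1.74). Its groups did not overlap, and the fitted level was 22.2-fold lower (log2 fold change -4.47, SE 0.54, adjusted p = 0.000909). Gstm1 (ENSMUSG00000058135.12, chr3:108012255-108017973, minus strand) had medians of 177 and 16.2 CPM and was 9.01-fold lower (-3.17, SE 0.59, adjusted p = 0.00659). It was lower in 5 of 6 mice, and without the mouse block it was at -2.36 and did not pass (adjusted p = 0.0563). In mouse 4 the metastasis line held 223 CPM, while the other metastasis lines held 3.97 to 24.5 CPM. Gstm4, at 3.21 to 5.26 CPM in tumor organoids and 0.963 to 5.49 CPM in metastasis organoids, differed by -1.02 in log2 terms (SE 0.25, adjusted p = 0.0201). Without tumor replicate 5 its adjusted p was 0.0698, and on counts summed per mouse and stage it was 0.0644. Gstm5, transcribed from the other strand at the edge of the row, had medians of 13.8 and 13.3 CPM (-0.05, adjusted p = 0.908).

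The 3 theta enzymes lie together on chromosome 10 and all fell. Gstt2 (ENSMUSG00000033318.7, chr10:75831114-75837424, minus strand) ran from 25.6 to 69.7 CPM in tumor lines (median 38.1) and from 10.9 to 21.97 CPM in metastasis lines (median 15.9). Its groups did not overlap, with a difference of -1.28 (SE 0.20, adjusted p = 0.00332). Gstt1 had medians of 41.9 and 14.98 CPM (-1.35, SE 0.34, adjusted p = 0.0221), and Gstt3 had 73.9 and 38.5 CPM (-0.66, SE 0.19, adjusted p = 0.0328). Both were lower in 6 of 6 mice but with overlapping ranges. Gstt1 did not pass without tumor replicates 1 or 3 or metastasis replicate 2 (adjusted p up to 0.0554), nor on counts summed per mouse and stage (adjusted p = 0.0516). Gstt3 passed in 6 of 16 such fits (tumor replicates 1, 6 and 7, metastasis replicates 1, 6 and 8), with an adjusted p up to 0.113.

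Gstp1, the pi enzyme that is abundant in many tumors (ENSMUSG00000060803.6, chr19:4035407-4037985, minus strand), ran from 373 to 598 CPM in tumor lines (median 445) and from 157 to 341 CPM in metastasis lines (median 265). The groups did not overlap, and the fitted level was 1.90-fold lower (-0.92, SE 0.19, adjusted p = 0.00955). Gsto1, the omega enzyme, had medians of 359 and 331 CPM (-0.27, adjusted p = 0.397). Gstk1, the kappa enzyme of mitochondria and peroxisomes, had medians of 2.26 and 2.52 CPM (0.04, adjusted p = 0.937). Tumor replicate 6 held the highest value of all 16 lines for both, 730 and 9.65 CPM.

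The microsomal transferases are membrane enzymes of a separate family, and Mgst1 and Mgst2 lay at opposite ends of the 38 genes. Mgst1 (ENSMUSG00000008540.11, chr6:138140316-138156755, plus strand) ran from 9.90 to 225 CPM in tumor lines with a median of 121. In metastasis lines it ran from 0.163 to 20.01 CPM with a median of 1.75. Tumor replicate 6 was again the tumor minimum, and the next tumor line held 60.8 CPM. The fitted level was 40.9-fold lower (log2 fold change -5.35, SE 0.72, adjusted p = 0.00187), and lower in 6 of 6 mice. Mgst2, which also makes leukotriene C4, ran from 0.0862 to 18.4 CPM in tumor lines (median 0.616) and from 1.81 to 31.1 CPM in metastasis lines (median 7.66). It was higher in 6 of 6 mice, but its log2 difference of 2.92 missed the threshold (SE 0.98, adjusted p = 0.0609). The 18.4 CPM belonged to tumor replicate 6, and without that library the difference was 3.96 (SE 0.54, adjusted p = 0.000497). It also passed without metastasis replicate 6 (adjusted p = 0.0386) or 8 (adjusted p = 0.0471), and on counts summed per mouse and stage (3.94, adjusted p = 0.0281). Mgst3 had medians of 33.7 and 41.0 CPM (0.28, adjusted p = 0.269).

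The make-up of the summed transcripts of these 15 transferases differed with stage, here per length and without a test. Other transferase genes lie outside the sum. Among them is Gsta1 of the alpha class, with means of 108 CPM in tumor lines and 147 CPM in metastasis lines. Its edgeR log2 fold change was 0.58 (SE 0.36, adjusted p = 0.272). The summed level of the 15 transferases was 1554 to 2997 CPM (median 2291) in tumor lines, against 776 to 1871 CPM (median 1132) in metastasis lines. Gsta4 made up a median of 23.7% of the summed TPM in tumor lines and 36.9% in metastasis lines, and Gsto1 made up 11.9% and 23.0%. Gsta3 made up 12.5% and 1.25%, Mgst1 6.75% and 0.258%, and Gstm1 6.25% and 0.741%. Gstp1 was close in both, at 27.4% and 25.8%.

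**Figure D3:**
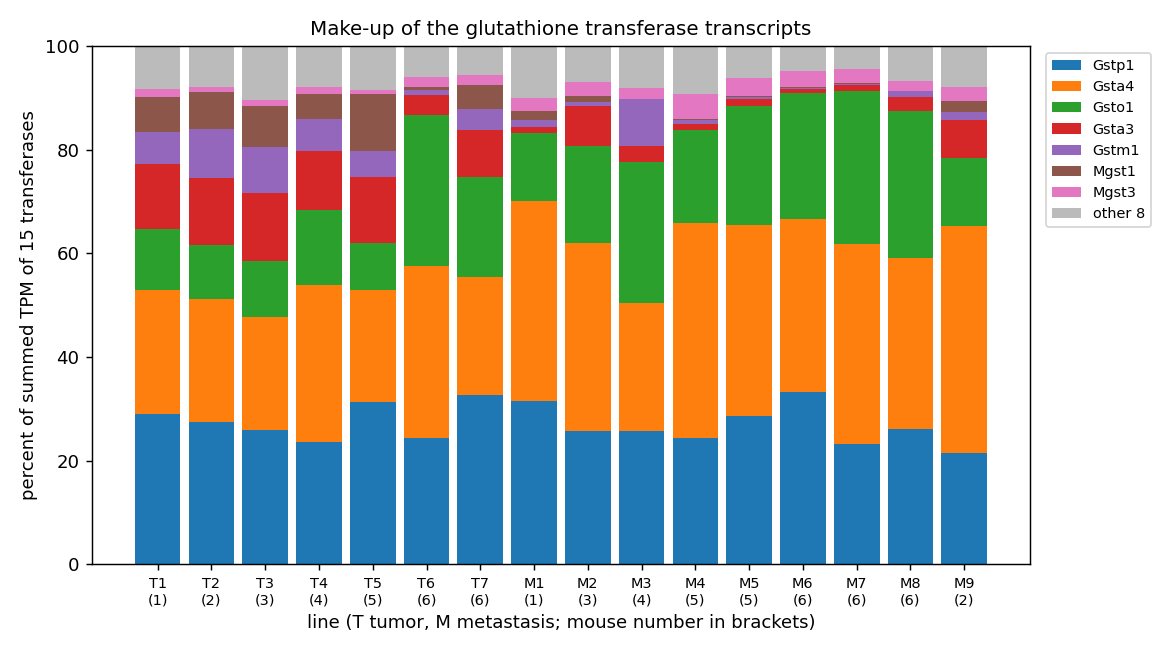
Stacked bars give each transferase's percent of the summed TPM of the 15 transferases, 1 bar per line, with the mouse number in brackets. Gsta4 and Gsto1 take more of the metastasis bars (medians 36.9% and 23.0%) than of the tumor bars (23.7% and 11.9%).

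Metastasis replicate 3, the peritoneal line of mouse 4, held the highest value of all 16 lines for 10 of the 38 genes. The next line by this count was tumor replicate 2, with 8. The 10 were Nqo1, Aldh3a1, Slc7a11, Gclm, Gsr, G6pdx, Me1, Gpx2, Gstm4 and Mgst2. In metastasis replicate 3, Slc7a11 stood at 659 CPM, against 46.5 to 313 CPM in tumor lines. Gsr stood at 699 CPM, against 374 CPM in the next metastasis line. Of the 20 other Nrf2 targets listed, 6 had their highest value in this line. The share of all genes that were highest in this line was not computed. Ftl1, the ferritin light chain, was 3998 CPM in it and 891 to 1872 CPM in the other 15. Without Ftl1 the list summed to 1882 CPM in this line, within the 773 to 1892 CPM of the others. In the same line Nfe2l2 was 189 CPM, the highest of the metastasis lines and below 6 of the 7 tumor lines. Mgst1 in it was 0.190 CPM, so the genes did not all move together. Its chromosome medians, the typical shift of a chromosome's genes from their mean over lines, were 0.56 on chromosome 3 and 0.44 on chromosome 8. Slc7a11, Gclm, Gstm4 and Mgst2 lie on the former, and Nqo1 and Gsr on the latter. The part of these shifts in the values was not tested.

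Tumor replicate 6, from mouse 6, often lay at an edge of the tumor range. By differences in counts per gene, its closest line was metastasis replicate 7 of the same mouse (correlation of log2 CPM 0.982). Its chromosome 19 median was 0.46, against 0.55 in metastasis replicate 7 and -0.08 in tumor replicate 7. The part of this likeness in the stage differences was not tested. Tumor replicate 6 was the lowest tumor line for 14 of the 38 genes and the highest for 16. How often it held these places over all genes was not computed, so the counts describe the 38 genes only. The 14 held 9 of the 16 genes that fell, which were Nfe2l2, Gclc, Gclm, Txnrd1, Prdx1, Gsta3, Gstm1, Gstm2 and Mgst1. Tumor replicate 7 of the same mouse held 330 CPM of Nfe2l2 and 60.8 CPM of Mgst1. Tumor replicate 2 was the highest of all 16 lines for 8 genes, Gclc, Txnrd1, Prdx1, Srxn1, Gsta3, Gstm1, Gstm2 and Gstp1, and it was also the tumor library richest in ribosomal RNA. The part of ribosomal RNA in these values was not tested, and the share over all genes was not computed for this line either.

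**Figure D4:**
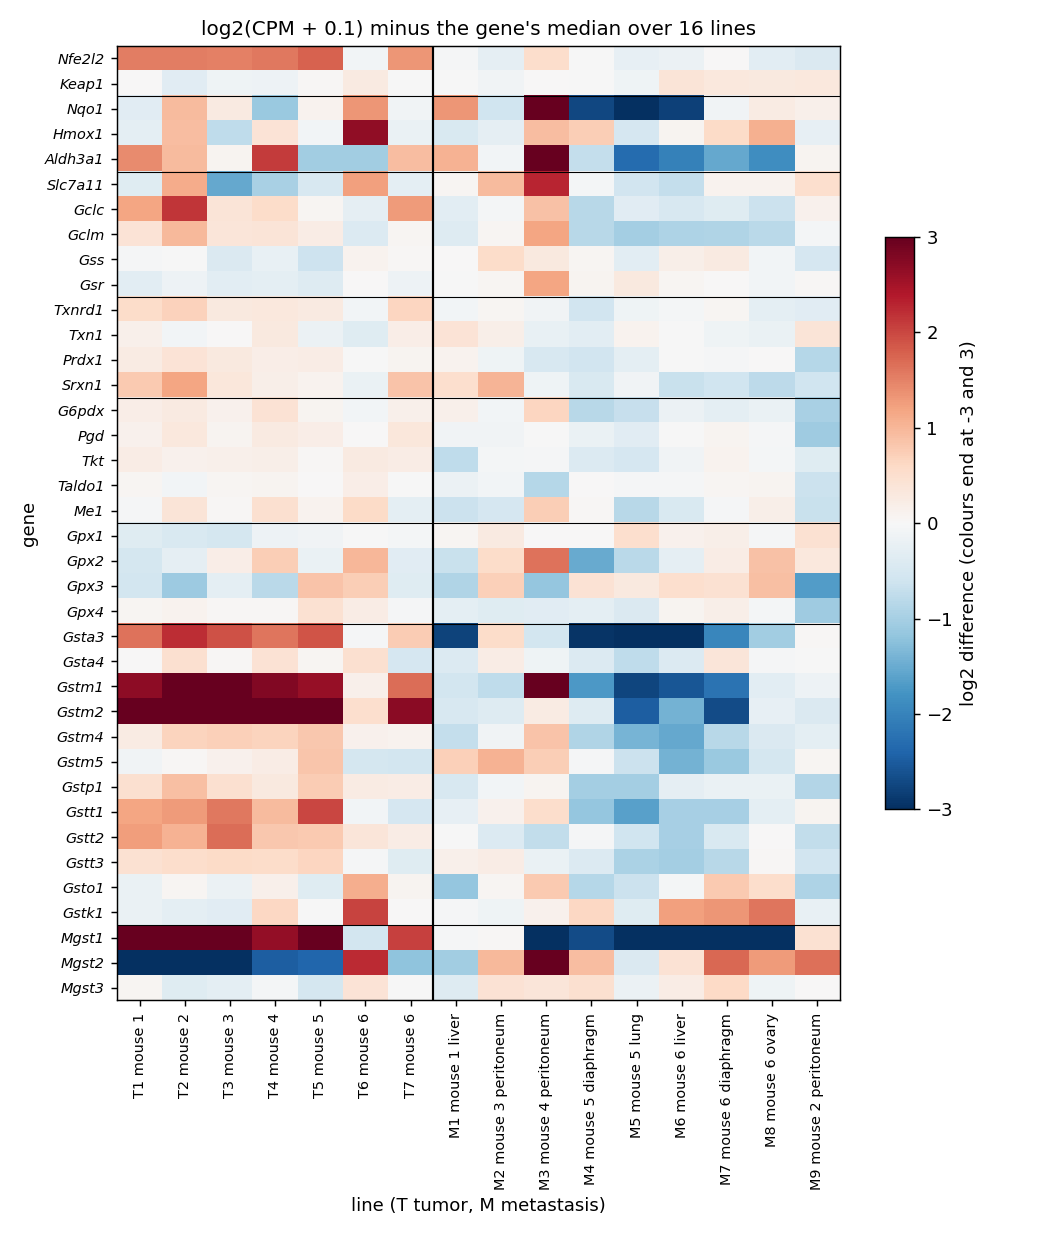
Rows are the 38 genes and columns the 16 lines, and colour shows log2(CPM + 0.1) minus the gene's median over the lines, with colours ending at -3 and 3. The column of tumor replicate 6 is lower than the other tumor columns for Nfe2l2 (125 CPM) and Mgst1 (9.90 CPM), and that of metastasis replicate 3 is high for Aldh3a1 (83.7 CPM) and Slc7a11 (659 CPM).

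Some members lie on chromosomes whose genes differed together. The chromosome median of metastasis lines minus that of tumor lines was taken within each mouse and averaged over the 6 mice. It was -0.24 on chromosome 4, -0.26 on chromosome 10, 0.24 on chromosome 3 and 0.25 on chromosome 19. These averages were not shared by all lines. On chromosome 4 the peritoneal lines, metastasis replicates 2, 3 and 9, had medians of -0.23, -0.43 and -0.37. The other metastasis lines held -0.02 to 0.15 there, and tumor lines -0.03 to 0.15. On chromosome 3 the same peritoneal lines held 0.27, 0.56 and 0.30, against -0.20 to 0.12 in the other metastasis lines and -0.22 to -0.02 in tumor lines. With each line's chromosome medians removed, 12 of the 38 fell (9.57% of all genes). The 2 that rose (1055 of 15573 genes) were Gpx1 and Gsr (0.43, adjusted p = 0.0321). On chromosome 10, Txnrd1 was then at -0.33 (adjusted p = 0.0954), Gpx4 at -0.26 (adjusted p = 0.2) and Gstt3 at -0.47 (adjusted p = 0.138), and none of the 3 passed. Gstt1 did not pass either, at -1.15 (SE 0.38, adjusted p = 0.0587), while Gstt2 on the same chromosome still passed at -1.08 (adjusted p = 0.00428). Prdx1 on chromosome 4 was at -0.26 and did not pass (adjusted p = 0.0984). G6pdx on the X chromosome passed at -0.37 (adjusted p = 0.0345). Gclm on chromosome 3 was at -0.78 (adjusted p = 0.00686). On chromosome 19, Gstp1 was at -1.18 (adjusted p = 0.00308), against -0.92 in the main fit. Gsto1 on the same chromosome was at -0.51, against -0.27, and did not pass (adjusted p = 0.0756).

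**Figure D5:**
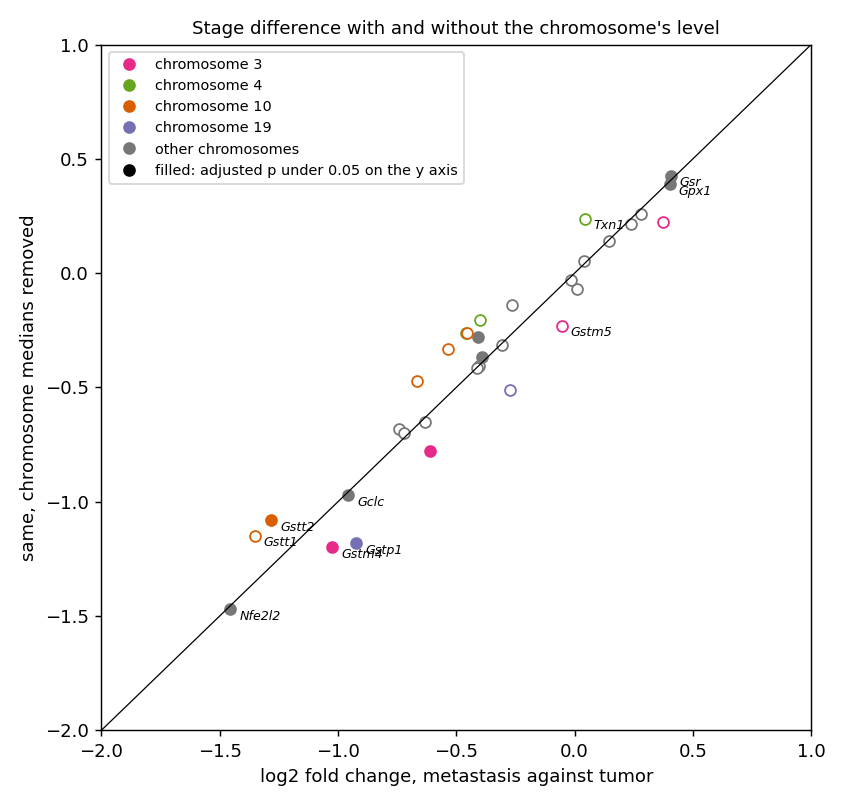
The x axis is the log2 fold change of metastasis against tumor lines and the y axis the same with chromosome medians removed, for 33 genes, and filled points have an adjusted p under 0.05 on the y axis. The 5 genes outside the axes, from -2 to 1, are Gsta3, Gstm1, Gstm2, Mgst1 and Mgst2, and the chromosome 10 genes lie nearer 0 on the y axis.

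Neither the mouse nor the organ of the metastasis gave a call among the 38 genes. For the mouse, 0 of 38 passed (0.154% of all genes) and 10 had an unadjusted p under 0.05 (17.1% of all genes), by edgeR's F test. The lowest was Aldh3a1 (adjusted p = 0.0611). For the site, 0 of 38 passed (0% of all genes) and 3 had an unadjusted p under 0.05 (1.71% of all genes). They were Gsta3 (unadjusted p 0.0208), Gstt2 (0.00272) and Gstt3 (0.0323), each with an adjusted p of 1 in edgeR's fit over all genes. Gsta3 differed from tumor lines by -4.22 in liver lines and -1.91 in peritoneal lines. Lung and ovary are represented by 1 line each. No other tool was run for mouse and site.

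Other genes of the same pathways were in part lower too, although in each list most did not pass the test. Over all genes 9.92% fell and 6.59% rose. Of 19 tested other Nrf2 targets, 6 fell and 1 rose (median -0.32). Ephx1, the microsomal epoxide hydrolase, fell by 3.69 (SE 0.37, adjusted p = 0.000326) and Cbr1, a carbonyl reductase, by 1.41 (adjusted p = 0.00313). Osgin1 fell by 1.94 (adjusted p = 0.00468) and the exporter gene Abcc4 by 0.97 (adjusted p = 0.00494). Of 20 other thioredoxin and peroxide genes, 5 fell and 1 rose (median -0.20). Sod3, secreted superoxide dismutase, fell by 6.41 (adjusted p = 0.000367), Cat, catalase, by 1.07 (adjusted p = 0.00279), Glrx, glutaredoxin, by 1.87 (adjusted p = 0.00729), and Prdx6 by 1.12 (adjusted p = 0.0107).

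Of 15 other NADPH genes, 4 fell and 0 rose (median -0.10): Idh2 by 0.85 (adjusted p = 0.0054), Pgls by 0.47 (adjusted p = 0.0126), H6pd by 0.86 (adjusted p = 0.0255) and Idh1 by 0.43 (adjusted p = 0.0427). Of 17 other glutathione turnover and cysteine supply genes, 0 fell and 1 rose, Lap3 by 0.37 (adjusted p = 0.0414). Of 12 other transferase and peroxidase genes, 1 fell, Gstm7 by 2.32 (adjusted p = 0.00836), and 0 rose.

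The antioxidant response element has the core TGACNNNGC, and the promoters of members that carry it are shown to place it beside the values above. Promoters came from RefSeq (GRCm38.p6), from 250 bases before to 50 bases after each start, and the motif was searched on both strands. Of the 38 genes, 32 had a promoter in the table, 43 promoters in all. The motif was found in 11 of the 43 (25.6%) and in 12.4% of all 32851 promoters in the table. Of the 11 genes with it, 6 fell, and of the 21 matched genes without it 8 fell, where 9.92% of all genes tested fell. The difference between these counts was not tested. The windows of those 6 and of Gstm5 and G6pdx, which did not pass the test, follow, read 5′ to 3′ on the gene's strand with the motif match in capitals. For Gclm, Prdx1, Mgst1, Txnrd1 and G6pdx the motif lies on the opposite strand, so the capitals show its reverse complement.
Nfe2l2, chr2:75704869-75704913, minus strand, match 240 bases before the start: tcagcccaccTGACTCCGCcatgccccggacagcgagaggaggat
Gclm, chr3:122245397-122245457, plus strand, match 134 bases before the start: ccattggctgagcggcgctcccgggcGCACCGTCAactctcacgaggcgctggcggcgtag
Txnrd1, chr10:82859088-82859148, plus strand, match 92 bases before the start: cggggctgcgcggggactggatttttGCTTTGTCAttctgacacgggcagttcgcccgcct
Prdx1, chr4:116685440-116685500, plus strand, match 133 bases before the start: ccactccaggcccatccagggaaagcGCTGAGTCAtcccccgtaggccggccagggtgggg
Gsta3, chr1:21240438-21240498, plus strand, match 121 bases before the start: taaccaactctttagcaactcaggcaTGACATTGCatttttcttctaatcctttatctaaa
Mgst1, chr6:138140445-138140505, plus strand, match 56 bases before the start: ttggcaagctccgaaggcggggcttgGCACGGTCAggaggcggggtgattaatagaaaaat
Gstm5, chr3:107895786-107895846, plus strand, match 42 bases before the start: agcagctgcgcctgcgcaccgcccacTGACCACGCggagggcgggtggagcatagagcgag
G6pdx, chrX:74428903-74428963, minus strand, match 57 bases before the start: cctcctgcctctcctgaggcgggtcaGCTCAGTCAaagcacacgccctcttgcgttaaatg

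Of the 11 genes with the match, Nfe2l2, Gclm, Txnrd1, Prdx1, Gsta3 and Mgst1 fell, and Gstm5, G6pdx, Srxn1, Pgd and Me1 did not pass. The matches of Srxn1, Pgd and Me1 reach past the start and are not printed. A match describes the letters of these windows and not binding, and elements farther from a start lie outside them.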

How the data were processed

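The authors deposited 1 gene table per line with expected counts and TPM. Per the submitters' processing notes, the tools were FastQC 0.11.8, STAR 2.6.0c and RSEM 1.3.1 and the build was GRCm38.p6. Strand settings are not given in the sources used here. The deposited expected counts are estimates and were rounded to whole numbers. The deposited TPM values are scaled per length and per library and were used to compare genes. Gene positions are from GENCODE M21.

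All 16 lines entered 1 edgeR 4.0.16 quasi-likelihood fit (R 4.3.3) with TMM scaling, filterByExpr by stage, a term per mouse and a term for stage. Benjamini-Hochberg adjustment covered 15573 genes, with a threshold of 0.05. The SE is the log2 fold change divided by the square root of F. Mouse terms and site terms were tested by F tests. The mouse label pairs lines by animal. Deviations from the stage means correlated at 0.261 on average between lines of 1 mouse and at -0.116 between lines of different mice. Most of the 17 pairs of lines of 1 mouse come from mouse 6, so the first average mostly describes that mouse. By differences in counts per gene, the closest pair of all lines was tumor replicates 1 and 3, from different mice.

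All 38 genes are named. From each other pathway list, up to 4 genes past the threshold with the lowest p are named. Gsta1, which did not pass, is named besides for its level. The members and lists were chosen with earlier results of these data known. Alternatives were another scaling, filter, tool or unit (DESeq2 1.42.0, limma 3.58.1 on voom and TPM values), counts summed per mouse, ribosomal RNA handled in 3 ways, chromosome medians removed, and each line and mouse left out. The edgeR stage fit was tested on counts simulated for the same lines, with equal spread for all genes and no differences between mice. The alternatives and the mouse and site tests were not tested in this way. Precision is limited by the number of lines and by totals of 24624390 to 49965469 expected counts. Isoform tables were not used.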

Additional observations from a re-analysis of the deposited data

Results flagged for a closer look

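Within the 7 tumor lines and within the 9 metastasis lines, the line farthest from the rest was examined for each of the 38 genes. In 11 of 76 such groups (14.5%) it stood apart by Dixon's criterion, which chance alone meets in about 1 in 20 groups. Genes of 1 line are not independent, and no explanation was tested.

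Metastasis replicate 3 stood above the other metastasis lines for 5 genes. Its Nfe2l2 was 189.0 CPM, against 132 CPM in the next line. Its Aldh3a1 was 83.7 CPM, against 7.23 CPM. Its Gclm was 212.7 CPM, against 97.1 CPM. Its Gsr was 699.3 CPM, against 374 CPM. Its Gstm1 was 223.3 CPM, against 24.5 CPM.

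Tumor replicate 6 stood apart from the other tumor lines for 4 genes. Nfe2l2 was 125.0 CPM there, against 330 CPM in the next line above. Mgst1 was 9.90 CPM, against 60.8 CPM. Gsto1, at 729.5 CPM against 384 CPM, and Gstk1, at 9.65 CPM against 3.60 CPM, lay above the others.

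Metastasis replicate 9 stood below the other metastasis lines for 2 genes. Pgd was 83.7 CPM there, against 140 CPM in the next line. Gpx4 was 72.1 CPM, against 112 CPM.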

How the results depend on the processing

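Across 37 alternatives, 5 of the 17 called genes were called in every one, 12 were not called in some, and 0 changed sign. Of the 21 others, 16 were never called and 5 were called in some (Gsr, Srxn1, G6pdx, Pgd and Mgst2), while 9 changed sign in some (Keap1, Nqo1, Hmox1, Aldh3a1, Txn1, Gpx2, Gpx3, Gstm5 and Gstk1). With no replicate block (no term pairing the lines of a mouse), 2219 genes were called against 2571. Of the 38, 13 then fell (1274 of 15573 genes) and 1 rose (945 of 15573), with Gclm, Gpx4 and Gstm1 no longer called. Over all genes, 3968 were called by DESeq2, 1038 on log2(TPM + 1), 1022 on log2(TPM + 0.1), 555 on log2(TPM + 1) without a filter, and 794 without the 2 libraries richest in ribosomal RNA. Without mice 1 to 5 in turn, 1500, 1394, 1272, 1677 and 766 were called. The TPM scales moved the median of all genes to -0.13 and -0.16, and 70.5% of calls were lower on log2(TPM + 1) and 88.6% without a filter, against 60.1% in the fit described. Of the 38, 10 fell on counts summed per mouse (1265 of 15536 genes) and 9 on either filtered TPM scale (732 and 672 of 13893). There were 6 without a filter (492 of 32223), 5 without the 2 libraries (556 of 15817) and 7 without mouse 5 (481 of 15617). The number that rose was 2 on summed counts (1137 of 15536 genes) and with chromosome medians removed (1055 of 15573). It was also 2 without mouse 6 (1515 of 15483). It was 3 by limma-voom and DESeq2, and 0 on unfiltered TPM, without the 2 libraries and without mice 1, 2, 3 or 5. With 1 library left out at a time, all genes called ran from 1133 to 3910. Those of the 38 that fell ran from 8 to 17 (720 to 2132 over all genes). Those that rose ran from 0 to 3 (413 to 1778 over all genes). Those that differed by mouse ran from 0 to 3 and by site from 0 to 0. For mouse and site, counts over all genes in these fits are not given here. The causes were not tested. Genes near 0 CPM, such as Mgst1 in metastasis replicates 3 and 7 with 8 counts each, have folds limited by depth.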
